A study of Mus musculus with 4 samples.

Results

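The 8 genes described here encode transcription factors that set and hold the identity of the hepatocyte: the forkhead factors Foxa1, Foxa2 and Foxa3, the Onecut factors Onecut1 and Onecut2, the C/EBP factors Cebpa and Cebpb, and the homeobox factor Prox1. They were chosen by platform gene symbol and are 8 of 19938 genes with a single symbol on the array. All 8 exceeded the expression filter that 11963 genes passed, a mean above the 40th percentile of all genes, and each was measured by 1 probe set. Total RNA from mouse liver was hybridised to 4 Affymetrix Mouse Gene 1.0 ST arrays, 1 for each of SIRT6Co/Co ;Alb-Cre livers (KO) at 8 months, KO livers at 2 months, WT SIRT6 livers (WT) at 8 months and WT livers at 2 months. Each array carried RNA pooled from 3 pairs of mice. The KO livers carry a conditional allele of the deacetylase SIRT6 and a Cre transgene driven by the albumin promoter. That promoter is active in hepatocytes, and which other cell types of the liver lost or kept the gene was not measured here. The labels do not state strain, sex, feeding state or hour of collection.

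All values are log2 RMA values as deposited, on which a difference of 1 is a 2-fold difference. With 1 array per group there is no spread between samples of a group, so a difference at a single age is a value with no test. Genotype and age were tested together in an additive limma fit over all 4 arrays, with Benjamini-Hochberg adjustment over the 11963 genes and a threshold of 0.05, and "rose" and "fell" are used only of genes past it. The fit leaves 1 degree of freedom for each gene, moderated across genes, and its p-values weigh the genotype effect against the departure from additivity, not against the spread between mice or pools. Sirt6 itself read 4.46 and 4.54 in KO livers at 8 and 2 months, against 4.50 and 4.55 in WT livers (difference -0.03, SE 0.13, limma adjusted p = 0.92). The target gene therefore did not separate the groups. The part of its transcript that the probe set covers is unknown here, and every direction below rests on the labels. The tissue carried hepatocyte markers on all 4 arrays. The 19 measured genes of secreted plasma proteins, such as albumin and transthyretin, had a mean level of 11.3 and 11.4 in KO livers at 8 and 2 months and 11.4 in both WT livers, where the median of all probe sets lay between 3.52 and 3.58.

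The liver is built by a small network of factors that bind each other's genes as well as those of plasma proteins and metabolic enzymes. FOXA proteins are pioneer factors: their winged-helix domain binds DNA on nucleosomes and opens liver enhancers, in the embryonic endoderm and afterwards. ONECUT1, also called HNF6, carries a cut domain and a homeodomain, was described as an activator of the Foxa2 promoter, and is needed for bile duct formation, a role it shares with ONECUT2. C/EBP alpha is a leucine zipper factor that drives enzymes of glucose and nitrogen metabolism and restrains division, while C/EBP beta responds to inflammation, hormones and liver regeneration. PROX1 is needed for hepatoblasts to leave the liver bud and, in the adult, acts as a corepressor of nuclear receptors in bile acid synthesis. It is also the defining factor of lymphatic endothelium.

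Because several of these factors bind the genes of the others, the 250 bases before the RefSeq starts (GRCm38.p6) of the members were searched on both strands for the letters of 3 binding motifs: TGTTTAC for forkhead factors, ATTGAT for Onecut factors and TTGCNNAA for C/EBP factors. The motifs overlapped nowhere in these windows. Windows were on hand for 7 of the 8 genes, 10 in all, since Foxa2 has 3 starts and Prox1 has 2, and Onecut2 had no entry. The Onecut letters occurred in 1 window, the most upstream one of Foxa2, at 213 bases before the start, and the forkhead letters in 1 window, that of Foxa1, at 141 bases before the start and in reverse. The C/EBP letters occurred in 0 of the 10. Of all 32851 windows of this length, 6.72% held the Onecut letters, 3.17% the forkhead letters and 9.56% the C/EBP letters. The windows are shown for Foxa2 and Onecut1, which had the largest differences between KO and WT in opposite directions, and for Foxa1, the near relative of Foxa2. Each runs 5′ to 3′ along its own gene, and capitals mark the motif letters, which are a match of letters and not a measured binding site.
Foxa2, chr2:148046970-148047219, minus strand: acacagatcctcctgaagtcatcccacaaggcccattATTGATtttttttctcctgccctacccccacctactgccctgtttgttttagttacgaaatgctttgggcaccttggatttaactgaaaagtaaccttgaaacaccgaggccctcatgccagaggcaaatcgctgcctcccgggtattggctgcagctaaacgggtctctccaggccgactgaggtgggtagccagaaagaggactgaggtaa
Foxa1, chr12:57546112-57546361, minus strand: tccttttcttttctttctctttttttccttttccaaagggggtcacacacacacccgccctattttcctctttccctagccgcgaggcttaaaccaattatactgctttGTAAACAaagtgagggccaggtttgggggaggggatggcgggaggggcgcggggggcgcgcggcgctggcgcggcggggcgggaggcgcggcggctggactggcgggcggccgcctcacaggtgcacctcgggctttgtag
Onecut1, chr9:74861671-74861920, plus strand: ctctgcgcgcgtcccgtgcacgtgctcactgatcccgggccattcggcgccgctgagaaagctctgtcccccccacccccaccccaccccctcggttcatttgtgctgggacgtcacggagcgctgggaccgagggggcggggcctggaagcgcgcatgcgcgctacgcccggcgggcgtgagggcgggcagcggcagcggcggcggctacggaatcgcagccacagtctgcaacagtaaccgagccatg

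Between the genotypes, 2 of the 8 factors rose in KO livers (Onecut1 and Prox1), 1 fell (Foxa2) and 5 did not pass the test. In the same model 11.1% of all genes tested passed, 6.81% higher and 4.26% lower in KO livers. Both KO arrays lay beyond both WT arrays for 7 of the 8 factors, where 54.8% of all genes tested did so. They were higher for 4 (29.1% of all genes) and lower for 3 (25.7%). The size of the additive difference had a median of 0.27 over the 8 factors, beside 0.14 over all genes tested. The signed medians of the 8 were 0.11 at 8 months and 0.10 at 2 months, beside 0.00 and 0.01 over all genes tested. The comparisons at 8 and at 2 months rest on different arrays, and 7 of the 8 factors had the same sign in both, where 66.2% of all genes tested did so.

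**Figure D1:**
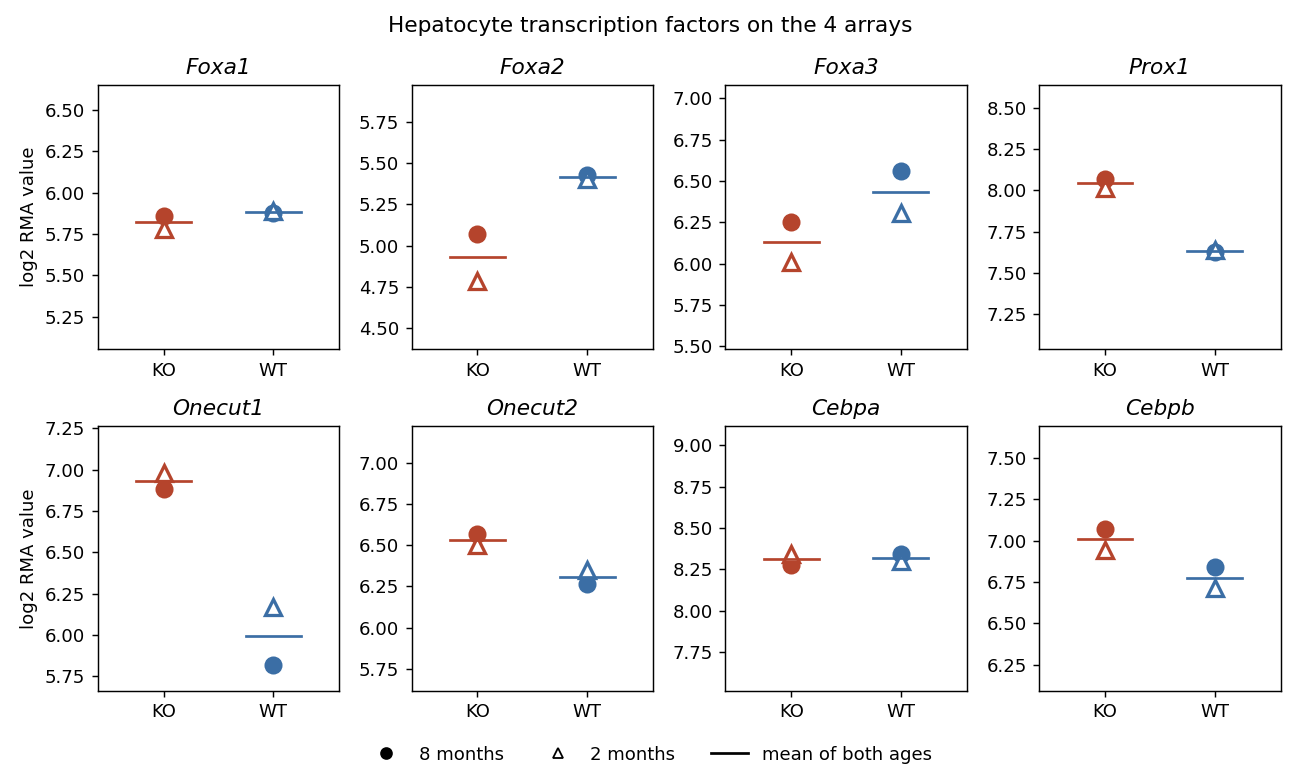
Log2 RMA value (vertical axis, each panel spanning the same 1.6 log2 units around the gene's mean) of the 8 factors in KO and WT liver; filled circles are the arrays at 8 months, open triangles those at 2 months and bars the mean of both ages, with 1 array per point. Onecut1 and Prox1 sat higher and Foxa2 lower on both KO arrays, while the Cebpa points of KO and WT overlapped.

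Among the forkhead factors, Foxa2 fell in KO livers and its relatives did not pass the test. Foxa2, which besides its part in liver development is known as a regulator of bile acid and lipid genes, read 5.07 in KO livers at 8 months and 4.79 in KO livers at 2 months, against 5.43 in WT livers at 8 months and 5.40 in WT livers at 2 months. The WT arrays were almost level and the KO array at 2 months was the lowest, with a gap of 0.33 between the groups. The difference was -0.36 at 8 months and -0.61 at 2 months, the latter 1.53-fold lower in KO livers. The additive difference was -0.49 (SE 0.12, 2 arrays per genotype, limma adjusted p = 0.023). Without the expression filter, which enlarges the set of genes adjusted over and also alters the moderation across genes, the adjusted p was 0.069.

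Foxa3, the last of the family to appear in the embryonic endoderm, read 6.25 and 6.01 in KO livers at 8 and 2 months, against 6.56 and 6.31 in WT livers. The groups did not overlap but were only 0.05 apart at their nearest points, because at both genotypes the array at 8 months was higher than that at 2 months. The KO minus WT difference was -0.31 at 8 months and -0.30 at 2 months, and the additive difference of -0.30 (SE 0.10) had a limma adjusted p of 0.072. It passed when the arrays were quantile normalized again, with an adjusted p of 0.032, and under cyclic loess, with 0.016.

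Foxa1, which overlaps with Foxa2 in opening liver chromatin, read 5.86 and 5.78 in KO livers at 8 and 2 months, against 5.88 and 5.89 in WT livers. The KO arrays were the lower ones, by 0.02 at the nearest points. The additive difference was -0.06, with a 95% interval from -0.29 to 0.17 before any adjustment for the number of genes, and an adjusted p of 0.78. The interval of Foxa1 overlaps that of Foxa2, from -0.75 to -0.22, and whether the FOXA genes differ from each other was not tested.

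Onecut1 had the largest difference of the 8 factors. It read 6.88 in KO livers at 8 months and 6.98 in KO livers at 2 months, against 5.82 in WT livers at 8 months and 6.17 in WT livers at 2 months. Both KO arrays stood at least 0.71 above both WT arrays, and the lowest of the 4 was the WT array at 8 months. KO livers were higher by 1.06 at 8 months, or 2.09-fold, and by 0.81 at 2 months, or 1.76-fold. The additive difference was 0.94 (SE 0.10, 2 arrays per genotype, limma adjusted p = 6.1e-05). By p-value it ranked 149 among the 11963 genes. A difference of 1.5-fold or more, with the same sign in both comparisons, was seen for 2.84% of all genes tested and for 1 of the 8 factors, Onecut1. At 8 months it was also the single member at least 1.5-fold apart (4.34% of all genes tested), and at 2 months it shared this with Foxa2 (6.37%).

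Onecut2, the paralogue that overlaps with Onecut1 in biliary and liver development, read 6.57 and 6.50 in KO livers at 8 and 2 months, against 6.27 and 6.35 in WT livers. The KO arrays were the higher ones, with a gap of 0.15. The difference was 0.30 at 8 months and 0.15 at 2 months. The additive difference of 0.23 (SE 0.10) did not pass, with a limma adjusted p of 0.18.

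Prox1 rose by a smaller amount that was nearly equal at both ages. It read 8.07 and 8.01 in KO livers at 8 and 2 months, against 7.63 and 7.64 in WT livers. Arrays of the same genotype lay within 0.06 of each other, and the genotypes were 0.37 apart at their nearest points. KO livers were higher by 0.44 at 8 months, or 1.36-fold, and by 0.37 at 2 months, or 1.30-fold. The additive difference was 0.41 (SE 0.08, 2 arrays per genotype, limma adjusted p = 0.0066). Without the intensity trend in the variance the adjusted p was 0.056. Since Prox1 also marks lymphatic endothelium, a list of endothelial markers was set beside it. Of 9 such genes, 1 rose, the junction protein Cdh5 with 0.45, 0 fell and 8 did not pass. Of all genes tested, 6.81% rose and 4.26% fell. The list medians were -0.08 at 8 months and -0.04 at 2 months. Of its markers of lymphatic vessels, Lyve1, which sinusoidal endothelium carries too, was at 0.44 (adjusted p = 0.058), with 0.26 at 8 months and 0.63 at 2 months, and Flt4 and Pdpn were at 0.18 and -0.22, all without passing. The summed level of the list, taken off the log2 scale, was 486 and 519 in KO livers at 8 and 2 months, against 490 and 499 in WT livers.

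**Figure D2:**
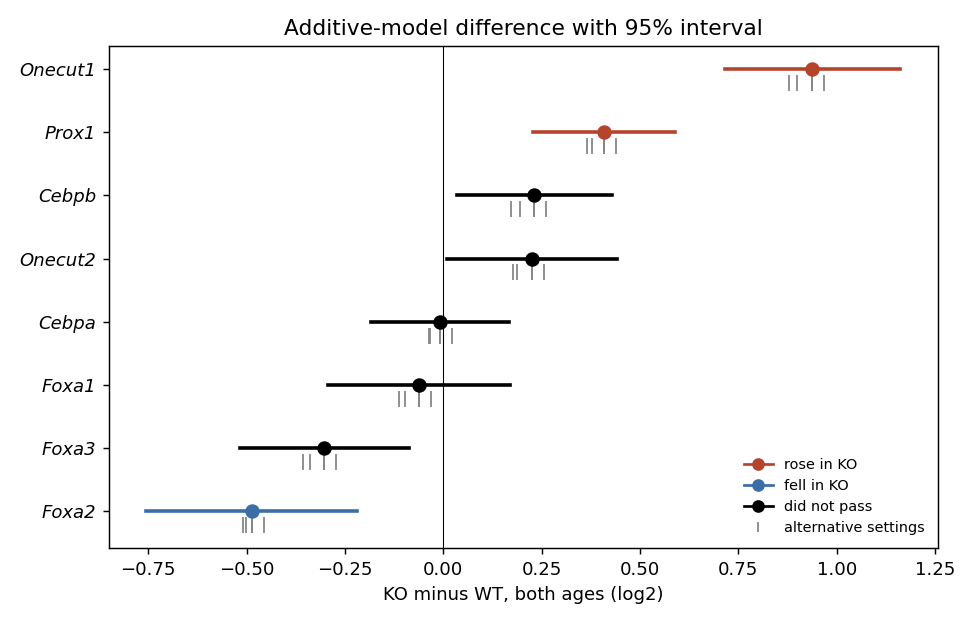
Additive KO minus WT difference (horizontal axis, log2) of each factor, with its 95% interval before adjustment for the number of genes; grey ticks under each are the values under the alternative settings. Onecut1 at 0.94 and Prox1 at 0.41 lie right of 0 and Foxa2 at -0.49 lies left of it, and the alternatives of each lie inside its interval.

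Neither C/EBP factor passed the test. Cebpa, the main C/EBP of the resting hepatocyte, read 8.28 and 8.35 in KO livers at 8 and 2 months, against 8.34 and 8.30 in WT livers. It was the single member whose groups overlapped. Its additive difference was -0.01, with a 95% interval from -0.18 to 0.17 before adjustment for the number of genes (adjusted p = 0.96).

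Cebpb, which is induced by cytokines and in regenerating liver, read 7.07 and 6.94 in KO livers at 8 and 2 months, against 6.84 and 6.71 in WT livers. The KO arrays were the higher ones, with a gap of 0.10. The difference was 0.23 at both ages, and the additive difference of 0.23 (SE 0.09) had a limma adjusted p of 0.13. Genes with which Cebpb is often induced, and markers of macrophages, which express it too, were set beside it. Of all genes tested, 6.81% rose and 4.26% fell. Of 18 immediate early genes, switched on within minutes of a stimulus, 14 rose and 0 fell, with list medians of 1.48 at 8 months and 1.32 at 2 months. The summed level of all 20 measured genes of the list was 4765 and 4883 in KO livers at 8 and 2 months, against 1591 and 1649 in WT livers. Of 13 acute phase genes, 5 rose and 0 fell: Apcs, Orm2, Orm3, Lcn2 and Saa2, with additive differences of 1.29, 1.16, 1.16, 1.10 and 0.62 and list medians of 0.20 and 0.52. The lowest of them, Itih3, Hp and Saa1, were at -0.13, -0.09 and -0.06 without passing. Of 9 markers of Kupffer cells and other macrophages, 3 rose, Cd5l, Vsig4 and Timd4 with 0.72, 0.49 and 0.43, and 0 fell. Lowest among these markers were Clec4f, C1qa and Adgre1, at 0.01, 0.16 and 0.17 without passing. The list had medians of 0.40 and 0.31, and its 10 measured genes summed to 469 and 505 in KO livers at 8 and 2 months, against 360 and 414 in WT livers. The part of these genes and cells in the values of the 8 factors was not tested. In pooled tissue, more cells of a type and more RNA per cell cannot be told apart.

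**Figure D3:**
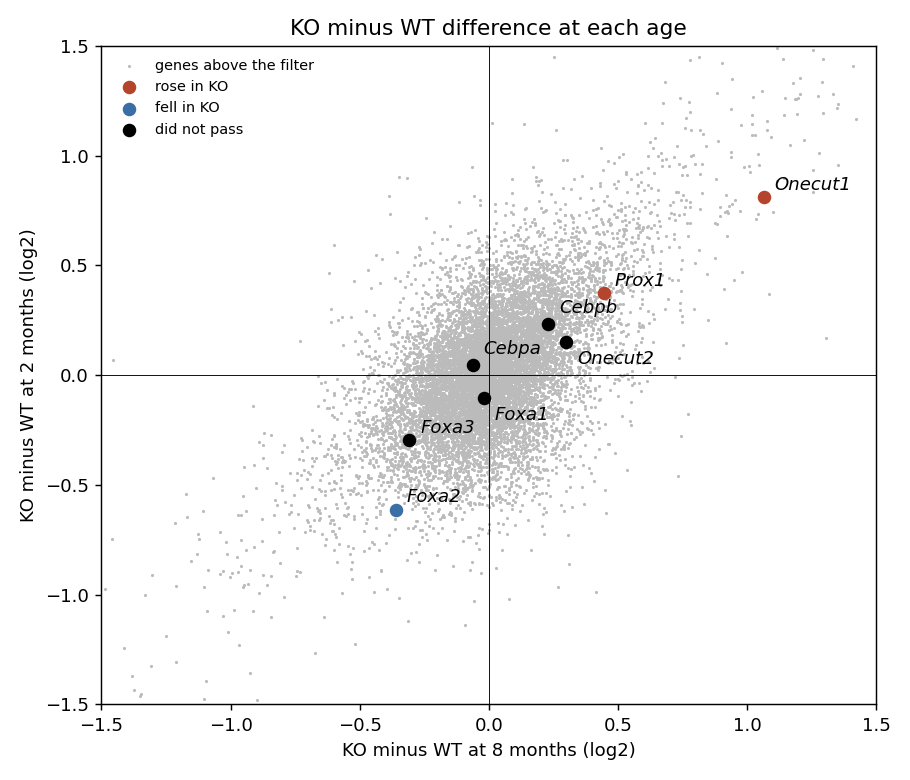
KO minus WT difference at 8 months (horizontal axis, log2) against that at 2 months (vertical axis, log2) for 11890 of the 11963 genes above the filter (grey; 73 lie outside the axes) and for the 8 factors, coloured by the additive test. Onecut1 and Prox1 lie at the upper right, Foxa2 at the lower left, and Cebpa beside the origin with opposite signs.

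For 8 against 2 months, 0 of the 8 factors passed in the additive model, with an adjusted p of 1 for each, where 0.00836% of all genes tested, a single gene, passed and 431 had an unadjusted p under 0.05. None was at least 1.5-fold apart between the ages in KO livers or in WT livers (0.652% of genes in each). The widest age differences of the 8 were those of Onecut1 in WT livers, at -0.35, against -0.10 in KO livers, and of Foxa2 in KO livers, at 0.28, against 0.03 in WT livers. Foxa3 was higher at 8 months by 0.24 in KO livers and by 0.25 in WT livers, and Cebpb by 0.13 in both. The median size of the additive age difference was 0.08 over the 8 factors, beside 0.07 over all genes tested.

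Other forkhead, C/EBP and hepatocyte factors were set beside the 8, where 6.81% of all genes tested rose and 4.26% fell. Of 14 other forkhead factors above the filter, 1 rose and 2 fell. Foxq1 rose with 0.52 (adjusted p = 0.0046), while Foxo1, the insulin-restrained activator of glucose output, and Foxp1 fell with -0.41 and -0.39 (adjusted p = 0.024 and 0.042). Of 3 other C/EBP factors, Ddit3, a stress-induced partner that dimerises with other C/EBPs and inhibits them, rose with 1.13 (adjusted p = 0.00034), and Cebpg and Cebpd were at -0.05 and -0.19 without passing. Of 21 further hepatocyte transcription factors, 0 rose and 3 fell: the xenobiotic receptor Nr1i3 with -0.95, the fatty acid receptor Ppara with -0.49 and the membrane-bound activator Creb3l3 with -0.32. The highest of this list, Nr2f2, Nfib and Hhex, were at 0.29, 0.25 and 0.19 without passing. The list medians at 8 and 2 months were -0.09 and 0.01 for forkhead factors, -0.07 and -0.02 for C/EBP factors and -0.07 and -0.07 for hepatocyte factors.

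Genes that these factors are known to bind or drive did not move as a block. Among 19 genes of plasma proteins, 0 rose and 1 fell, the fibrinogen chain Fga with -0.34 (adjusted p = 0.016). The shares over all genes tested were 6.81% and 4.26%, and a list of 19 is too short to be set apart from them. The list medians were -0.05 at 8 months and 0.02 at 2 months. Its mean level was 11.3 and 11.4 in KO livers at 8 and 2 months and 11.4 in both WT livers. Whether values this bright show a change in full was not tested. Apoa1 and Rbp4 were at -0.23 and -0.19, and Apoc3 and transthyretin (Ttr), a classic target of FOXA and HNF6, at 0.18 and 0.13, none of them past the threshold. Of 16 measured enzymes and other hepatocyte proteins, 3 rose and 4 fell, where 6.81% of all genes tested rose and 4.26% fell. The medians of these 16 were -0.16 at 8 months and -0.01 at 2 months. Glucose-6-phosphatase (G6pc), pyruvate kinase (Pklr) and the growth factor binding protein Igfbp1 rose with 0.70, 0.66 and 0.65. The bile acid hydroxylase Cyp8b1 fell with -0.93, the glycogen synthase Gys2 with -0.34, arginase (Arg1) with -0.32 and the gluconeogenic enzyme Pck1 with -0.28.

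**Figure D4:**
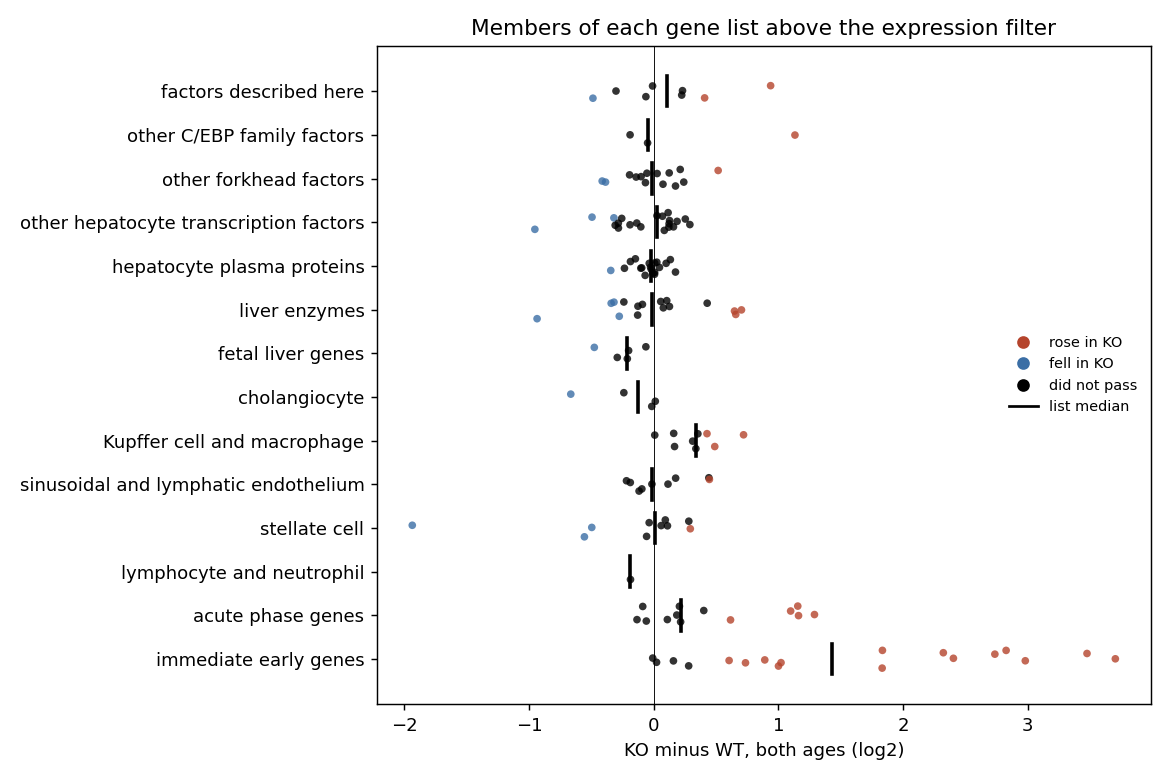
Additive KO minus WT difference (horizontal axis, log2) of each gene above the filter, by gene list; red rose, blue fell, black did not pass, and the vertical bar is the list median. The 8 factors span -0.49 to 0.94, and the immediate early genes reach 3.70.

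Among fetal liver and bile duct genes above the filter, 0 rose, where 6.81% of all genes tested rose and 4.26% fell. With 5 and 4 genes tested, these lists are too short to be set apart from those shares. Of 5 fetal liver genes above the filter, 1 fell, the imprinted gene Peg3 with -0.48, and 4 others, the fetal albumin relative Afp among them, were below it. Of 4 bile duct markers above the filter, 1 fell, the keratin Krt23 with -0.66, while Krt19 and Krt7 were at -0.02 and 0.01, Sox9 at -0.24, and 4 others, among them Epcam, were below it. The list medians at 8 and 2 months were -0.09 and -0.39 for fetal genes and -0.16 and -0.22 for bile duct genes. The 8 measured genes of the bile duct list summed to 90.1 and 88.6 in KO livers at 8 and 2 months, against 98.5 and 106 in WT livers. Of 10 stellate cell genes, 1 rose, Reln with 0.29, and 3 fell: smooth muscle actin (Acta2) with -1.94 and the collagens Col1a1 and Col3a1 with -0.56 and -0.50. That list had medians of -0.12 at 8 months and 0.09 at 2 months and summed to 1201 and 1245 in KO livers at 8 and 2 months, against 1223 and 1237 in WT livers. Of 9 measured lymphocyte and neutrophil genes, 8 were below the filter, and the other, Cd3e, was at -0.19 without passing.

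The pools also differed in a sex-linked transcript. Xist, made from the inactive X chromosome of females, read 2.29 and 2.66 in KO livers at 8 and 2 months, against 3.08 and 4.42 in WT livers, and its mean was below the expression filter. The Y-linked genes Eif2s3y, Kdm5d and Uty read between 5.56 and 7.43 in KO livers and between 5.53 and 7.27 in WT livers. Of the 3, 0 passed the test. The WT pool at 2 months had the highest Xist and the lowest Eif2s3y and Uty, at 7.04 and 6.18. KO minus WT for Eif2s3y, Uty and Kdm5d was 0.39, 0.44 and 0.07 at 2 months, and 0.07, 0.21 and 0.03 at 8 months. The part of sex in the difference of Onecut1, a gene known from rats to respond to growth hormone, was not tested.

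For the 3 factors that passed, the genes with the most similar profile were taken by Euclidean distance over the 4 arrays, after each gene's mean was subtracted. Nearest to Onecut1 were the pantetheinase Vnn1, at a distance of 0.06, the lipogenic protein Thrsp, at 0.09, and the semaphorin Sema5b, at 0.10. Vnn1 read 8.45 and 8.52 in KO livers at 8 and 2 months, against 7.35 and 7.77 in WT livers. Its low WT array at 8 months follows from the choice by distance and is no second observation of that pattern. Nearest to Foxa2 were Cabcoco1, the kinase gene Pim1 and Nxpe3, at 0.02, 0.05 and 0.06, and nearest to Prox1 were Rnf11, the sialyltransferase St6gal1 and Mettl15, at 0.02, 0.03 and 0.03. Cabcoco1 and Nxpe3 were dim, at 3.44 and 3.04 in KO livers at 2 months, where the filter lay at 3.34. Nxpe3 and Mettl15 did not pass the genotype test (limma adjusted p = 0.051 and 0.052).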

How the data were processed

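Per the labels, total RNA of mouse liver was measured on 4 arrays, 1 pool of 3 pairs of mice for each genotype and age. The authors deposited log2 values. Per the submitters' processing notes they used Affymetrix Expression Console 1.0v and RMA. RMA corrects background, quantile normalizes the arrays run together and summarises probes, which compresses differences of dim genes. The table does not name the log base, which is taken from RMA. Its probe annotation and build are unknown here. Arrays have no read depth, and their number limits the precision.

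Of 35556 probe sets, 21789 carried a single symbol in the platform table, 1621 carried several, and 12146 were unlisted and stay unnamed. Only the first were used, averaged per gene, which changed none of the 8 factors. Entrez identifiers matched to RefSeq changed 0 symbols, and 91 had no match. Genes with a mean above 3.34, the 40th percentile, were fitted in R 4.3.3 with limma 3.58.1 (lmFit and eBayes, intensity trend, prior of 11.3 degrees of freedom, two-sided p-values, Benjamini-Hochberg adjustment). The fit was run on simulated arrays with noise drawn from its own variance estimates and planted changes of 1.5-fold and 2-fold. These exceed the additive differences of Foxa2 and Prox1, and the run does not measure the spread between pools. The outcome of the run is not given, and no call here rests on it. Genotype differences are KO minus WT and age differences 8 minus 2 months.

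The factors, gene lists and alternatives were chosen with earlier results of these data known. Genes named are all 8 factors, Sirt6, and the 3 nearest profiles of each factor that passed. From each gene list, names were drawn from the 3 highest, the 3 lowest and the passing genes, and not all of these are printed. Albumin, Afp and Epcam are named as examples of their lists. The alternatives were the filter, the trend, 3 normalizations, the covariates, the choice of probe sets and the fold threshold. Motif searches used promoter windows of RefSeq, GRCm38.p6.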

Additional observations from a re-analysis of the deposited data

Results flagged for a closer look

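For 4 of the 8 factors a contrast had opposite signs in the other genotype or at the other age. KO minus WT kept its sign at both ages for 66.2% of all genes tested, and the matching share for the age contrast was not counted. With 1 array per group none of these differences between contrasts was tested. Cebpa was at -0.06 for KO minus WT at 8 months and 0.04 at 2 months, and at -0.07 for 8 minus 2 months in KO livers and 0.04 in WT livers, a difference of -0.11 between the contrasts. For 8 minus 2 months, Onecut2 was at 0.07 in KO livers and -0.08 in WT livers (difference 0.15), Foxa1 at 0.08 in KO livers and -0.01 in WT livers (difference 0.087) and Prox1 at 0.06 in KO livers and -0.01 in WT livers (difference 0.071). The same difference between contrasts had a median size of 0.16 over all 11963 genes tested.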

How the results depend on the processing

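The count of genes called for genotype, 1325, became 752 with no expression filter and 846 with no intensity trend. The share of these calls that was higher in KO livers was 61.5%, against 68.6% under median centring and 52.7% under quantile normalization again. For age, 1 gene was called, against 17 under cyclic loess, 2 under median centring and with the brightest probe set, and 0 without the filter, with a 20th percentile filter, without the trend, under quantile normalization again and with age as the single term. Of the factors, 1 in place of 2 rose without the trend, where Prox1 was at 0.41 with an adjusted p of 0.056. In place of 1 that fell there were 0 without the filter, where Foxa2 was at -0.49 (adjusted p 0.069), and 2 under quantile normalization again and cyclic loess, where Foxa3 joined it at -0.36 and -0.34 (adjusted p 0.032 and 0.016). The adjusted p over the 9 alternatives ran from 3.4e-09 to 0.0023 for Onecut1, 0.00061 to 0.056 for Prox1, 0.0032 to 0.069 for Foxa2 and 0.016 to 0.15 for Foxa3. At a 1.2-fold threshold 5 factors were apart at 8 months and 4 at 2 months, and at 2 months 0 were apart at 2-fold and 1 under median centring. Signs turned for values near 0 that did not pass: Cebpa at 0.022 for genotype under median centring, and for age Onecut2 at 0.020 and 0.022 under quantile normalization again and cyclic loess, Cebpa at 0.027 and 0.017 under the same, and Prox1 at -0.0032 under median centring. The other 134 of 144 values kept their direction and side of the threshold. The cause of these changes was not tested.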
